A study of Saccharomyces cerevisiae with 4 samples.

Results

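Budding yeast makes its own P-type ATPases, membrane pumps of the protein family to which the bacterial cadmium pump CadA belongs. Genes were chosen by name, as 10 yeast P-type ATPase genes sorted by what their proteins move, and a gene counted as measured when a probe carried its symbol alone and had a value on every array. By that rule 3 of the 10 were measured, among 5946 features (genes, and probes with no symbol or several) in all. They are PCA1 of the heavy metal pumps, PMC1 of the calcium and manganese pumps and PMA1 of the proton pumps. CCC2, PMA2, SPF1, DRS2, NEO1 and DNF1, 6 genes, had no probe under their names, and PMR1 was listed only on probes that also list HUR1. The lipid pumps (0 of 3 genes) and the endoplasmic reticulum (ER) pump (0 of 1 gene) therefore have no value here.

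The study set 2 transformants of strain W303-1A against each other, one making CadA of Listeria monocytogenes and one making its mutant D398A, in which an aspartate is replaced by alanine. Both were grown at 30 °C to an OD600 of 0.4 and both received 1 µM cadmium for 1 h, so cadmium was shared and no culture without it enters the comparison. RNA of both strains was hybridised on each of 4 two-colour arrays, with CadA in Cy5 on arrays 1 and 3 and in Cy3 on arrays 2 and 4. The sources used here do not give the promoter or vector of the pump, nor do they state that arrays came from separate cultures, so the spread between arrays may be technical.

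A P-type ATPase passes phosphate from ATP to an aspartate of its own chain, and this step drives an ion or a lipid across the membrane. Yeast uses such pumps to keep a proton gradient at the plasma membrane, to store calcium in the vacuole, to supply the secretory route with metal ions, to move lipids between membrane leaflets and to export metal. Pca1 is the yeast pump whose known task comes nearest to that of CadA, since a working Pca1 exports cadmium. In many laboratory strains PCA1 carries a missense change that removes this activity, and the allele of W303-1A was not examined here.

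Every value below is a log2 ratio of the 2 strains, with base 2 assumed. The table does not say which dye is the numerator, or whether dye-swapped arrays were already turned, so neither side is assigned to a strain and each gene is given in 2 readings. In turned signs the sign was flipped on the 2 arrays with CadA in Cy5, and in deposited signs nothing was flipped. If the table had not been turned before, the turned mean is the strain difference, CadA over D398A if the numerator is Cy3 and D398A over CadA if it is Cy5, and the deposited mean is a difference between dyes. If the table had already been turned, the deposited mean is the strain difference, in an unknown direction, and the turned mean is the difference between dyes. A gene passed when its mean over the 4 arrays differed from 0 with an adjusted p below 0.05 (limma, two-sided, Benjamini-Hochberg over all 5946 features). The SD of all probes was 0.87 and 0.95 on arrays 1 and 2, against 0.46 and 0.47 on arrays 3 and 4. The first number of each probe identifier was read as a print block and the rest as a position in it. The sources used here do not state this layout. Differences between the 48 print blocks read this way made up 10.8% to 38.5% of the variance, depending on the array.

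None of the 3 genes passed in either reading, and neither did any other feature (0%, limma). At an unadjusted p below 0.05, limma reached 112 features (1.88%) in turned signs, PCA1 among them, and 695 (11.7%) in deposited signs, none of the 3 among them. Arrays resembled each other little over all features. Pearson correlations of deposited values were 0.17 (arrays 1 and 3) and -0.02 (2 and 4) with the same dye orientation. With opposite orientation they were 0.34 (1 and 2), 0.07 (1 and 4), 0.002 (2 and 3) and 0.22 (3 and 4), and turning reverses the sign of these. The median of the 3 means was 0.05 in turned signs, beside -0.01 over all features, and 2 of the 3 means were positive, as were 47.4% of all features. In deposited signs the median was 0.54, beside -0.03 over all features, and all 3 means were positive, against 46.5% of all features. Counts among 3 genes are too small to be set against these shares, and PMC1 and PMA1 lie on adjacent spots. Neither median was steady. Without 1 array the turned median ran from -0.36, without array 4, to 0.31, without array 1. The deposited median was 0.14 without array 4, 0.10 on arrays 1 and 2 alone and -0.059 with the median of adjacent spots subtracted, where PMA1 alone kept a positive mean. The exact sign-flip tests of single genes given below cannot go below p = 0.125 with 4 arrays, a floor that limma's test does not have.

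**Figure D1:**
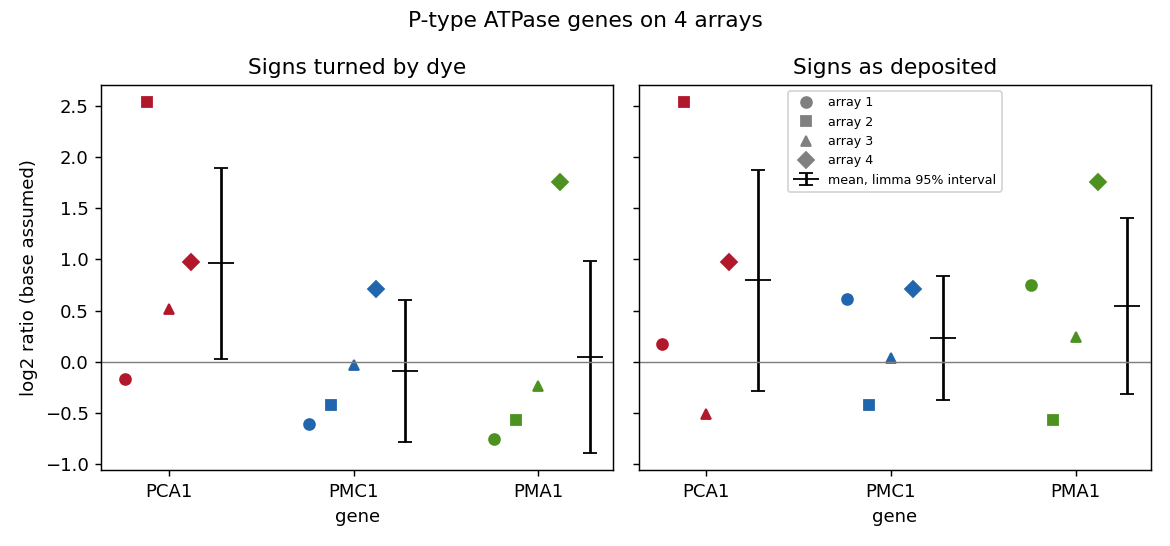
Log2 ratio (vertical axis, base assumed) of PCA1, PMC1 and PMA1 on each of the 4 arrays, with signs turned by dye on the left and as deposited on the right. Black bars are the mean with limma's 95% interval; PCA1 reads highest on array 2 at 2.54, and PMC1 and PMA1 read highest on array 4 at 0.71 and 1.76.

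PCA1, the heavy metal pump gene, had the highest mean of the 3 in both readings with all 4 arrays and no correction. PMA1 was higher in deposited signs without array 2, at 0.92 against 0.21 for PCA1, and also with scaled or weighted arrays, under both corrections for position and on arrays 3 and 4 alone. In turned signs PMA1 was higher on arrays 3 and 4 alone, at 0.76 against 0.74. In turned signs PCA1 read -0.17, 2.54, 0.51 and 0.98 on arrays 1 to 4. Array 2 stood far above the others, and array 1 lay on the other side of 0. A positive sign on 3 or 4 arrays was seen for 25.3% of all features. The mean was 0.96 ± 1.15 (SD, n = 4), or 1.95-fold, with a 95% limma interval of 0.03 to 1.90. Its unadjusted p was 0.045 and its adjusted p 1.00 (limma), and the exact two-sided sign-flip test gave p = 0.25, adjusted to 0.56 over 6 such tests. A mean above 0.5 was seen for 6.63% of all features, and 99.0% of features had a lower mean than PCA1.

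In deposited signs PCA1 read 0.17, 2.54, -0.51 and 0.98 and averaged 0.79 ± 1.31 (SD, n = 4), with a limma interval of -0.29 to 1.88. The 2 arrays with CadA in Cy3 were its high ones, averaging 1.76, and the 2 with CadA in Cy5 averaged -0.17. Its adjusted p was 0.48 (limma) and its exact sign-flip p 0.38. In this reading a mean above 0.5 was seen for 11.2% of features. Array 2 carried much of the mean, which without it was 0.44 in turned and 0.21 in deposited signs. Without array 1 the turned mean was 1.34, with array 3 left out the deposited mean was 1.23, and in each of the 4 fits without 1 array the adjusted p stayed above 0.05.

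The spots around PCA1 were also high on array 2. PCA1 lies in print block 48, whose 127 measured probes had a median of 1.83 on array 2, the highest of the 48 blocks. There 70.9% of the block's probes read above 1, against 12.3% of all probes on that array. The probe identifiers were read as a block and a position in it, and 5 spots lie 1 step from PCA1 by these positions. On array 2 those 5 read between 2.51 and 3.48, and PCA1 at 2.54 stood within that range, near its lower end. They hold MAL33 and MPH2, of maltose use and transport, the vacuolar amino acid transporter gene VBA2, the hexose transporter gene HXT15 and 1 unnamed probe. VBA2 is also a near neighbour of PCA1 in the order of genes on the chromosome.

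On the other arrays PCA1 differed from its surroundings in both directions. On array 1 it read 0.17 as deposited, and the 5 adjacent spots read between 0.55 and 2.01. On array 3 it read -0.51, below all 5 adjacent spots, which ran from -0.28 to 0.37. On array 4 it read 0.98, against a median of 0.43 and a highest value of 1.08 around it. After the median of each block was subtracted on each array, PCA1 averaged 0.48 ± 0.50 in turned signs (limma interval -0.10 to 1.07, unadjusted p = 0.092, adjusted p = 1.00) and 0.32 ± 0.65 in deposited signs. With the median of adjacent spots subtracted instead, it averaged 0.49 ± 0.63 in turned signs and changed sign to -0.41 ± 0.70 in deposited signs. The turned mean was positive under both corrections and smaller than the uncorrected 0.96, but not from the same arrays. With adjacent spots subtracted, array 1 read 1.06 in turned signs and array 2 read -0.40, on the opposite sides from before, and arrays 3 and 4 read 0.73 and 0.55.

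**Figure D2:**
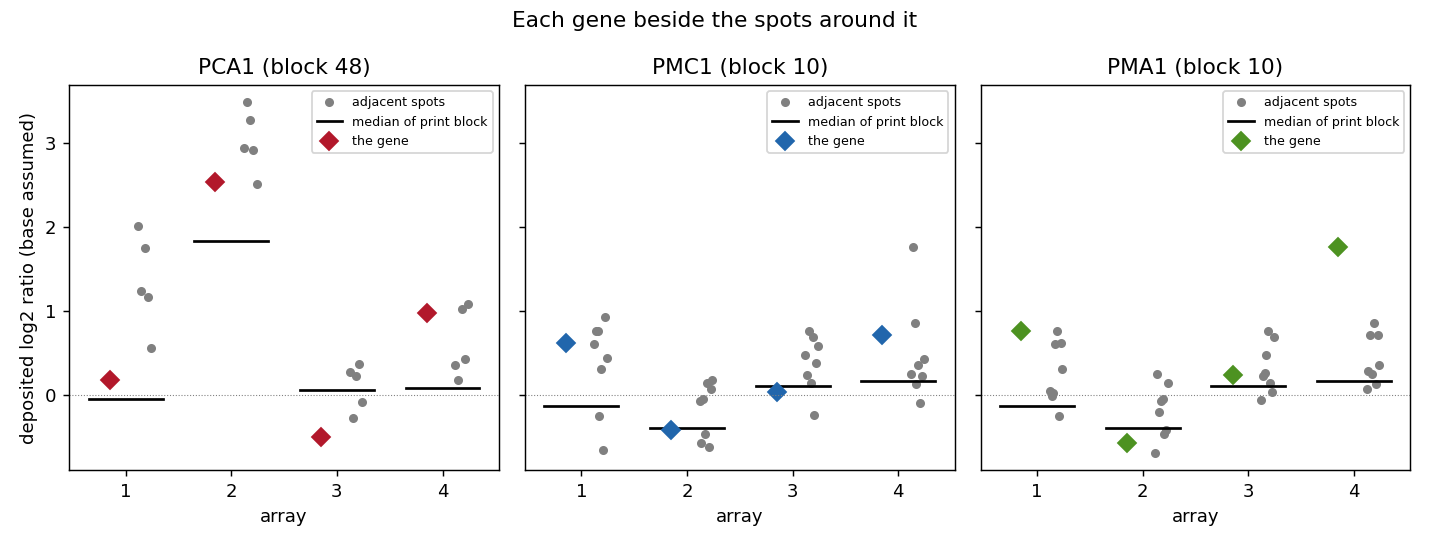
Deposited log2 ratio (vertical axis, base assumed) of each gene (coloured diamond) on each array, beside the spots 1 step away by probe identifier (grey points) and the median of its print block (black line). On array 2 PCA1 lies among its neighbours, which read 2.51 to 3.48, whereas PMA1 on array 4 at 1.76 lies above all of its own, which reach 0.85.

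PMC1, which pumps calcium into the vacuole, varied least of the 3 between arrays. In turned signs it read -0.61, -0.42, -0.03 and 0.71 on arrays 1 to 4. Array 4 alone was positive, so the arrays fell on both sides of 0. The mean was -0.09 ± 0.59 (SD, n = 4), with a limma interval of -0.78 to 0.60 and an adjusted p of 1.00 (limma). In deposited signs PMC1 read 0.61, -0.42, 0.03 and 0.71 and averaged 0.23 ± 0.53, with an interval of -0.38 to 0.84 and an adjusted p of 0.69 (limma). A positive sign on 3 or 4 arrays, as here, was seen for 33.3% of features in deposited signs.

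The direction of PMC1 in turned signs depended on the arrays used. Its mean was 0.08 without array 1 and 0.02 without array 2, and -0.36 without array 4. It was -0.04 ± 0.54 after block centring, with 2 arrays on each side of 0. In deposited signs the mean was 0.07 without array 4, 0.11 without array 1 and 0.45 without array 2, and -0.059 with adjacent spots subtracted. Within its print block, number 10, PMC1 was higher than 90.4% of probes on array 1 and 92.6% on array 4, and near the middle on arrays 2 and 3, at 47.8% and 42.6%.

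PMA1, the plasma membrane proton pump and one of the most abundant membrane proteins of yeast, read -0.75, -0.58, -0.24 and 1.76 on arrays 1 to 4 in turned signs. A single array, array 4, was positive, and by more than any of the others was negative. The mean was 0.05 ± 1.16 (SD, n = 4), with a limma interval of -0.89 to 0.99 and an adjusted p of 1.00 (limma). Without array 4 the mean changed sign to -0.52. In deposited signs PMA1 read 0.75, -0.58, 0.24 and 1.76, with a mean of 0.54 ± 0.98, an interval of -0.32 to 1.41 and an adjusted p of 0.53 (limma). Array 2 was then the negative one, and the mean was 0.92 without it (interval 0.09 to 1.74, adjusted p = 0.51, limma) and 0.14 without array 4.

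Unlike PCA1 on array 2, PMA1 on array 4 stood out from the spots around it. It was higher than 99.8% of all probes on that array and 99.3% of the 136 in its block, whose median was 0.16. The 8 adjacent spots, PMC1 among them, read between 0.07 and 0.85. With the median of adjacent spots subtracted, PMA1 averaged 0.11 ± 0.92 in turned and 0.40 ± 0.81 in deposited signs. PMA2, which codes for a second and very similar proton pump, has no probe under its name, and whether the PMA1 probe also binds PMA2 transcripts was not tested.

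Without correction for position, PMC1 and PMA1 were on the same side of 0 as each other on all 4 arrays, in either reading. Under both corrections this held on arrays 1, 2 and 4 but not on array 3. As deposited, PMC1 and PMA1 read -0.06 and 0.14 there after block centring, and -0.39 and 0.0006 with adjacent spots subtracted. By their identifiers the probes lie side by side in block 10, and the genes are near neighbours on the chromosome. The 2 are therefore not independent samples of the array. The part of this shared position in their likeness was not tested. PMA1 exceeded PMC1 on arrays 1, 3 and 4 as deposited and lay below it on array 2. The 2 differed by 0.20 or less on arrays 1 to 3 and by 1.05 on array 4.

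The 3 genes could not be separated from each other over 4 arrays. Intervals of the differences below are ordinary t intervals of the 4 arrays, unlike limma's intervals of single genes. Without correction for position, PCA1 lay above PMC1 on all 4 arrays in turned signs, by 0.44, 2.96, 0.54 and 0.27. The mean difference was 1.05 ± 1.28 (95% interval -0.98 to 3.09). The exact sign-flip p was 0.125, the smallest that 4 arrays allow, and 0.75 after adjustment over 6 comparisons (3 pairs in each of 2 readings). PCA1 minus PMA1 averaged 0.92 ± 1.62 in turned signs (exact p = 0.50, interval -1.66 to 3.49) and was negative on array 4. PMC1 minus PMA1 averaged -0.14 ± 0.61 (exact p = 1.00, interval -1.10 to 0.83). In deposited signs the corresponding differences were 0.56 ± 1.64, 0.25 ± 1.91 and -0.31 ± 0.52, each with an adjusted exact p of 1.00. PCA1 was then above PMC1 on 2 arrays and above PMA1 on 1. PCA1 lies in print block 48 and the other genes in block 10, whose medians on array 2 were 1.83 and -0.395. After block centring PCA1 was still above PMC1 on all 4 arrays in turned signs. With adjacent spots subtracted it was not, as array 2 read -0.40 for PCA1 and -0.36 for PMC1.

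**Figure D3:**
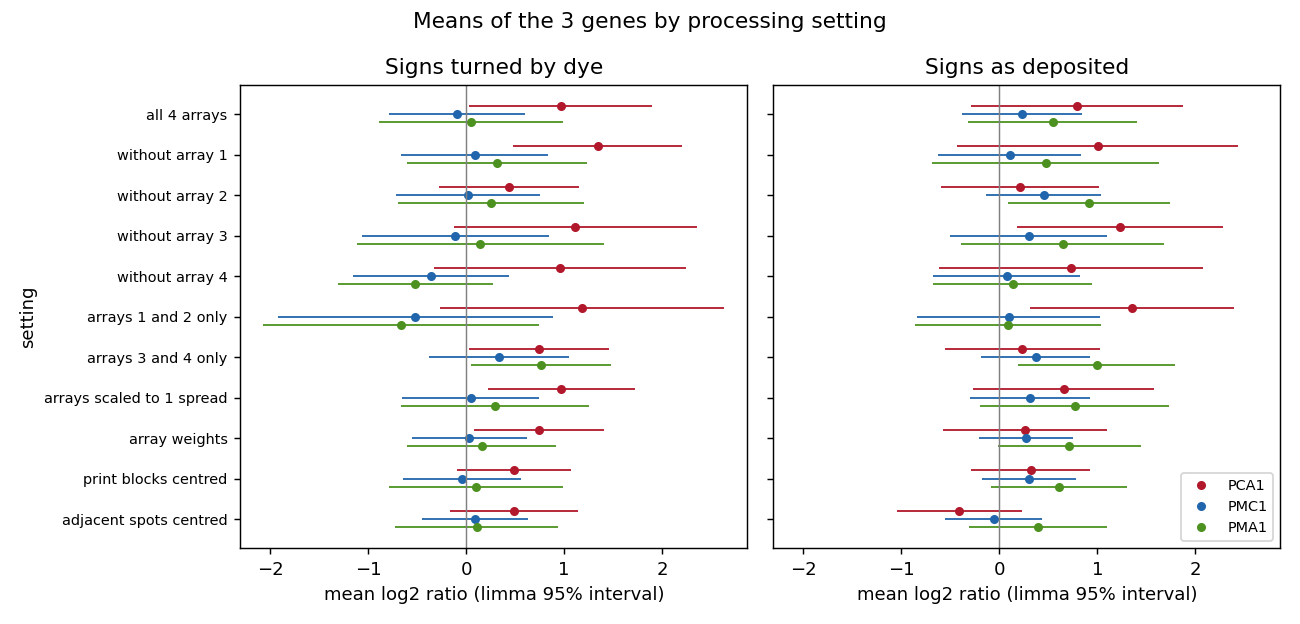
Mean log2 ratio (horizontal axis) of the 3 genes with limma's 95% interval under each set of arrays or correction, turned signs on the left and deposited signs on the right. The mean of PCA1 stays above 0 in all turned settings, between 0.44 and 1.34, whereas those of PMA1 and PMC1 fall on both sides. The turned interval of PCA1 crosses 0 in several settings, such as without array 2 (-0.27 to 1.15). In deposited signs its mean falls to -0.41 with adjacent spots centred.

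The genes most like each pump gene over the 4 arrays were found by the root mean square difference of the deposited values, each array divided by its SD, among 3096 other named genes. The 5 nearest to PCA1 were DOG1, HXT15, VTH2, SEC31 and PET9, at 0.35, 0.52, 0.58, 0.59 and 0.72 array SDs, beside a median of 1.98 over all named genes. Of these 5 genes 4 share print block 48 with PCA1, and DOG1 lies in block 43. DOG1, a sugar phosphatase gene, read -0.02, 3.13, -0.41 and 1.00 as deposited. The nearest to PMC1 was YBT1, a vacuolar transporter gene of the ABC class, at 0.10, and the nearest to PMA1 was EXG1, a cell wall glucanase gene, at 0.61. YBT1 and EXG1 lie in blocks 21 and 1, away from block 10. Over 4 arrays such nearness is a description of these values only.

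One further P-type ATPase was measured under its own name among 6 outside the rule. YPK9, a vacuolar pump, read 0.06, -1.71, 0.31 and 0.40 in turned signs. Array 2 alone was negative. It averaged -0.23 ± 0.99 in turned signs and -0.42 ± 0.91 in deposited signs (SD, n = 4; adjusted p = 1.00 and 0.60, limma). With adjacent spots subtracted its turned mean changed sign to 0.06 ± 0.73, and after block centring it was -0.07 ± 0.68. Another probe lists YPK9 together with SNF2 and averaged -0.05 ± 0.86 in turned and -0.19 ± 0.83 in deposited signs.

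Of 65 genes listed beside the pumps, 32 were measured, YPK9 included, and none passed in either reading (0%, limma). The lists hold partners, other transporters and genes of the same membranes, so a listed gene need not act with a pump. In turned signs 15 of the 32 means were positive (median -0.01), and in deposited signs 14 (median -0.04). An unadjusted p below 0.05 was reached by 1 gene in turned signs, FPK1, and by 1 in deposited signs, BPT1. These shares, 1 of 32, compare with 1.88% and 11.7% of all features.

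On the heavy metal route, which covers copper delivery, metal import and storage of cadmium and zinc in the vacuole, 10 of 15 genes were measured. Of these 4 had a positive mean in turned signs (median -0.05) and 2 in deposited signs (median -0.18). COT1, a vacuolar zinc and cobalt transporter gene, read -0.53, -0.51, -1.21 and 0.00 in turned signs and averaged -0.56 ± 0.50. Its mean in deposited signs was 0.31 ± 0.74, on the other side of 0. ZRT1, the high-affinity zinc importer through which cadmium can also enter, read 0.30, 0.12, 0.82 and 0.80 in turned signs, positive on all 4 arrays, as were 3.40% of features. ZRT1 averaged 0.51 ± 0.35 there and -0.05 ± 0.68 in deposited signs. After block centring the turned mean of ZRT1 was 0.52 ± 0.32, and its deposited mean changed sign to 0.10 ± 0.67. Neither gene passed in turned or deposited signs (adjusted p between 0.66 and 1.00, limma).

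BPT1, an ABC transporter that carries glutathione conjugates and cadmium into the vacuole, is named because its unadjusted p was below 0.05, a choice made after its values were seen. In deposited signs it read -1.46, -1.36, -0.86 and -0.34. All 4 arrays were negative, as they were for 12.3% of features. The mean was -1.01 ± 0.52 (SD, n = 4; unadjusted p = 0.0054, adjusted p = 0.42, limma). In turned signs BPT1 averaged 0.16 ± 1.26, with 2 arrays on each side, and after block centring the deposited mean was -1.04 ± 1.04, with 1 array positive.

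Of the calcium and manganese partners 5 of 12 were measured, with medians of 0.01 in turned and 0.32 in deposited signs. RCN1, a regulator of the calcium-dependent phosphatase calcineurin, averaged 0.18 ± 0.54 in turned and 0.18 ± 0.54 in deposited signs. Its deposited mean was 0.05 after block centring and changed sign to -0.14 with adjacent spots subtracted. CNA1, a catalytic subunit of calcineurin, averaged 0.11 ± 1.07 in turned signs, with 1.67 on array 2 and negative values on the other arrays. In deposited signs CNA1 averaged 0.62 ± 0.81. After block centring its mean was -0.19 ± 0.51 in turned signs, on the other side of 0, and 0.43 ± 0.25 in deposited signs. CRZ1, the transcription factor that calcineurin switches on and that is known to raise PMC1 transcription, averaged 0.01 in turned and 0.32 in deposited signs, beside -0.09 and 0.23 for PMC1 itself. CRZ1 is given for this known link and was chosen after its values were seen.

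Of the proton pump partners 5 of 10 were measured, and 1 had a positive mean in turned signs (median -0.19) and 2 in deposited signs (median -0.04). SHR3, an ER chaperone of amino acid permeases, averaged -0.29 ± 0.60 in turned and -0.13 ± 0.67 in deposited signs. Its deposited mean was -0.02 after block centring and changed sign to 0.25 with adjacent spots subtracted. PMP3, a small hydrophobic membrane protein gene, averaged -0.19 ± 0.71 in turned signs and -0.55 ± 0.39 in deposited signs (adjusted p = 0.43, limma).

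The lipid pumps themselves had no value, but 8 of 12 flippase partners did, with medians of 0.00 in turned and -0.22 in deposited signs. FPK1, a kinase that activates the flippases, read 0.99, 0.83, 0.73 and 0.25 in turned signs. It was positive on all 4 arrays, as were 3.40% of features, and averaged 0.70 ± 0.32 (SD, n = 4; unadjusted p = 0.030, adjusted p = 1.00, limma). FPK1 is named because its absolute turned mean was the largest of the list, so these values were picked by size. FPK1 lies in print block 48 with PCA1, and after block centring its turned mean was 0.22 ± 0.88, and 0.04 ± 0.73 with adjacent spots subtracted. In deposited signs FPK1 averaged -0.16 ± 0.85, which became -0.63 ± 0.55 after block centring and -0.41 ± 0.55 with adjacent spots subtracted. SYS1, a Golgi membrane protein gene, averaged -0.37 ± 0.45 in turned and -0.34 ± 0.48 in deposited signs.

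Of the list of ER membrane factors, set beside the ER pump SPF1, 3 of 10 were measured and all 3 means were positive in both readings. The medians were 0.38 in turned and 0.21 in deposited signs. GET3, which targets tail-anchored proteins to the ER, averaged 0.42 ± 0.68 in turned signs, with 1.40 on array 2, and 0.21 ± 0.80 in deposited signs. HRD1, a ubiquitin ligase of ER-associated degradation, averaged 0.38 ± 0.42 and 0.33 ± 0.47 in turned and deposited signs. With 3 genes measured, the list is too short to be set against the 47.4% and 46.5% of features with a positive mean.

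**Figure D4:**
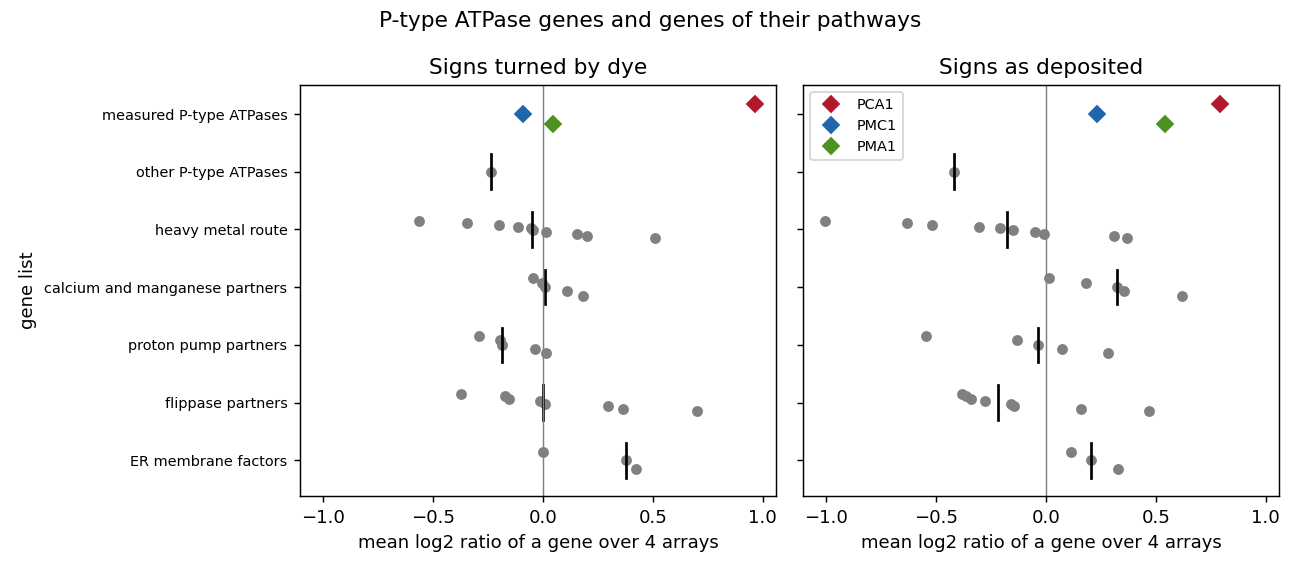
Mean log2 ratio over 4 arrays (horizontal axis) of the 3 measured P-type ATPase genes (coloured diamonds) and of each measured gene of the pathway lists (grey points, black line for the list median). No correction for position was made here. In turned signs PCA1 at 0.96 lies to the right of every listed gene, the nearest being FPK1 at 0.70, also of print block 48. After block centring (not drawn) PCA1 at 0.48 lay below GET3 at 0.53 and ZRT1 at 0.52. With adjacent spots subtracted, PCA1 at 0.49 lay below ZRT1 at 0.68.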

How the data were processed

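The authors deposited 1 normalized log ratio per probe and array, taken here as log2; per the submitters' processing notes it was made with limma 3.2.1, while the sources used here do not give the background correction, normalization, log base or numerator. Values were present for 6162 of 6216 probes on all arrays and absent for 54. Of the 6216, 3344 had 1 gene symbol, 387 several and 2485 none. Probes of 1 gene were averaged, and each probe with no symbol or with several was kept as a feature, which gave 5946 features. Each feature's mean was tested against 0 with lmFit and eBayes (limma 3.58.1, R 4.3.3), in both sign readings, and the fit was tested on simulated data. The simulation drew independent noise with equal spread on all arrays of a feature. It therefore did not cover block differences, likeness of adjacent spots or unequal arrays. Named genes are the measured members and, of each list, the 2 genes with the largest absolute turned mean. Members and lists were chosen with earlier results of these data known. Alternatives left out each array, scaled or weighted arrays, centred print blocks, used ordinary statistics, named genes only, or a dye term. Intensities were not used here, so the signal behind a ratio is unknown, and ratios cannot show whether a gene is expressed.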

Additional observations from a re-analysis of the deposited data

How the results depend on the processing

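None of the 3 genes passed under any of the 13 alternatives, in either reading. Of these, 3 (ordinary statistics, named genes only, a dye term) leave a mean as it is, and 10 can change it. In turned signs PCA1 had a positive mean in those 10, between 0.44 and 1.34. PMA1 changed sign to -0.66 on arrays 1 and 2 alone, and its means without 1 array ran from -0.52 to 0.31. PMC1 changed sign to 0.045 with arrays scaled to 1 spread, 0.032 with array weights, 0.34 on arrays 3 and 4 alone and 0.087 with adjacent spots subtracted, and its means without 1 array ran from -0.36 to 0.084. In deposited signs, subtracting adjacent spots changed PCA1 to -0.41 and PMC1 to -0.059, and no other alternative changed a sign. Over all features limma called 4 in turned signs with array weights, 10 on arrays 3 and 4 alone and between 0 and 1 without 1 array. It called 205 in deposited signs on arrays 1 and 2 alone. The cause was not tested. The fits of 2 arrays and of adjacent spots were chosen after seeing the data.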

Other observations

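Both probes that list PMR1, a Golgi calcium and manganese pump gene, also list HUR1, so neither gene was given a value. As deposited, the first read 0.27, -1.16, -0.56 and -0.02 on arrays 1 to 4 and the second 0.70, 0.41, 0.06 and 0.67. Their turned means were -0.22 ± 0.71 and 0.08 ± 0.60, and their deposited means -0.36 ± 0.63 and 0.46 ± 0.29 (SD, n = 4), so the 2 probes differed in sign in both readings.

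Another 3 probes list the sodium pump genes ENA1, ENA2 and ENA5 together. Their turned means were -0.02, -0.02 and 0.26 and their deposited means 0.43, 0.66 and -0.28. The first 2 probes lie in block 33 and the last in block 35.

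On every array a spot resembled the spots around it. Across 6156 probes with at least 3 adjacent spots, the Pearson correlation of a probe with the median of those spots was 0.34, 0.61, 0.47 and 0.42 on arrays 1 to 4. Probes are not independent replicates. Some genes that lie near each other on a chromosome also lie on adjacent spots, as PMA1 with PMC1 and VBA2 with PCA1, and others, such as PHO89 beside PCA1 and LEU1 beside PMA1, do not.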
